A study of Homo sapiens with 20 samples.

Results

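The genes described here encode the eukaryotic translation initiation factors, the proteins that bring the ribosome, the initiator tRNA and the start codon of an mRNA together. Members were chosen by gene symbol: every symbol that begins with EIF1 to EIF6 and has at least 1 curated (NM_) RefSeq transcript, without the eIF2 alpha kinases, symbols that end in P and a number, and the Y-linked EIF1A gene. Of 126 symbols with such a beginning, 56 had a curated transcript and 48 of these remained, of 46425 gene symbols in all. The 3 cap-binding inhibitor genes EIF4EBP1, EIF4EBP2 and EIF4EBP3 fall outside the rule by their ending and are described with the pathway. The members comprise 5 genes of scanning and start codon selection, 6 of eIF2 and initiator tRNA delivery, 5 of eIF2B, 14 of eIF3, 12 of the eIF4 group, 4 of eIF5A and eIF6, and 2 that carry such a name but act elsewhere. The rule itself uses no measured value, but it was set with earlier results of these data known.

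Initiation begins when eIF2, loaded with GTP and the initiator tRNA, joins the small ribosomal subunit together with eIF1, eIF1A, eIF3 and eIF5, while eIF4E, eIF4G and eIF4A bind the capped end of the mRNA and unwind it. The complex scans to a start codon, eIF5 promotes GTP hydrolysis by eIF2, eIF5B joins the large subunit, and eIF2B reloads eIF2 with GTP for a new round. Erythroid cells are a classical system for the control of this step, because a maturing erythroblast loses most of its mRNA and ribosomes yet must keep making globin.

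The cells are HUDEP-2, erythroid progenitors immortalized from cord blood, with genotype WT throughout. RNA was taken at day 0, daily until day 8 and again at day 12 of erythroid culture, and 2 libraries represent each of these 10 time points. Expansion medium held EPO, SCF, doxycycline and, by the study's methods, dexamethasone, which is not listed for the differentiation medium. The latter held EPO, SCF and doxycycline with holo-transferrin, AB human serum, heparin and insulin, from which SCF was left out from day 6 and doxycycline from day 8, so the stages compared also differ in these agents. Being an established line kept in growth by doxycycline, the cells stand for 1 genotype, and nothing in the labels says whether the 2 libraries of a day come from separate cultures, so p-values measure only the spread between these libraries. The libraries of set A come from 3 tables of separate days and those of set B from a table that spans all days. The deposited columns give the day only.

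Libraries held 52131713 to 70358198 counts. Between 71.7% and 85.2% of genes with 100 counts or more differed between the libraries of a day by more than counting noise, so these are different libraries. Erythroid markers (11 of 11 on the list, globin genes included) had counts in all 20 libraries, while the lymphoid markers CD3E, MS4A1 and NKG7 had 0 counts in all 20. The platelet genes PF4 and PPBP were also at 0 in all 20, GP9 in 16, and the 6 macrophage markers summed to 10.0 and 6.61 TPM on day 0, 32.0 and 15.7 on day 1, the highest of the course, and 4.85 and 3.35 on day 12. Globin genes took 0.859% and 0.819% of counts on day 0, 9.85% and 8.49% on day 8, and 28.2% and 33.7% on day 12. Ribosomal RNA took 18.5% and 17.5% in the set A libraries of days 7 and 8 and 1.03% to 4.08% elsewhere. With TMM factors computed without globin genes, or without ribosomal RNA genes, the counts of members called below were the same in all 3 comparisons, and results without the set A libraries of days 7 and 8 and under other scalings stand beside them.

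Of the 48 members, 47 passed the filter on low counts. EIF4E1B (0 to 5 counts a library) did not, and EIF4E3 (0 to 21 counts) and EIF2S3B (1 to 14 counts) passed it only narrowly, so these 3 cap-binding and eIF2 copies were barely detected and are not discussed further. Reads of EIF3C and EIF3CL, of EIF5A and EIF5AL1, and of EIF2S3 and EIF2S3B can be shared between near-identical copies, and the division of such reads makes the level of each member of these pairs uncertain. Most members were highly expressed in erythroblasts. On day 0, 30 and 31 members stood at 100 TPM (the authors' level per transcript length, scaled to a fixed total in each library) or more in the 2 libraries, against 22 and 25 on day 8 and 10 and 9 on day 12.

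By TPM the leading members on day 0 were EIF3E (1614, mean of both libraries), EIF5A (1577) and EIF4A1 (1434), followed by EIF3K (876). EIF1 was in place 13 on that day with 316. On day 12 the order had changed: EIF1 stood first with 1223 TPM, and EIF1B with 198, EIF4A1 with 193, EIF5A with 191, EIF4G2 with 188 and EIF4A2 with 185 followed. The values of EIF3E, EIF5A and EIF4A1 overlap between libraries on day 0, and on day 12 each of the 5 genes behind EIF1 overlaps with its neighbour, so these neighbours do not differ beyond their spread. EIF1 alone made up 2.26% and 2.40% of the TPM of all members on day 0, 8.06% and 5.25% on day 8, and 28.1% and 36.5% on day 12. Together the members took 1.34% and 1.37% of all TPM on day 0, 0.649% and 0.908% on day 8, and 0.374% and 0.383% on day 12, while globin genes rose from 2.91% and 2.90% to 59.4% and 63.0%. In bulk samples fewer mRNA molecules per cell and a larger share of globin mRNA cannot be told apart.

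For comparisons between days, counts were scaled by TMM, which sets the libraries to a common level by their bulk of genes, and given as normalized CPM, counts relative to the scaled library total. A TMM-scaled difference is relative to the middle of the mRNA pool. A member called higher on day 12 has therefore held its place better than most mRNAs, and need not have more molecules per cell. Calls are from edgeR's quasi-likelihood test on all 16784 genes tested, with Benjamini-Hochberg adjusted p under 0.05.

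**Figure D1:**
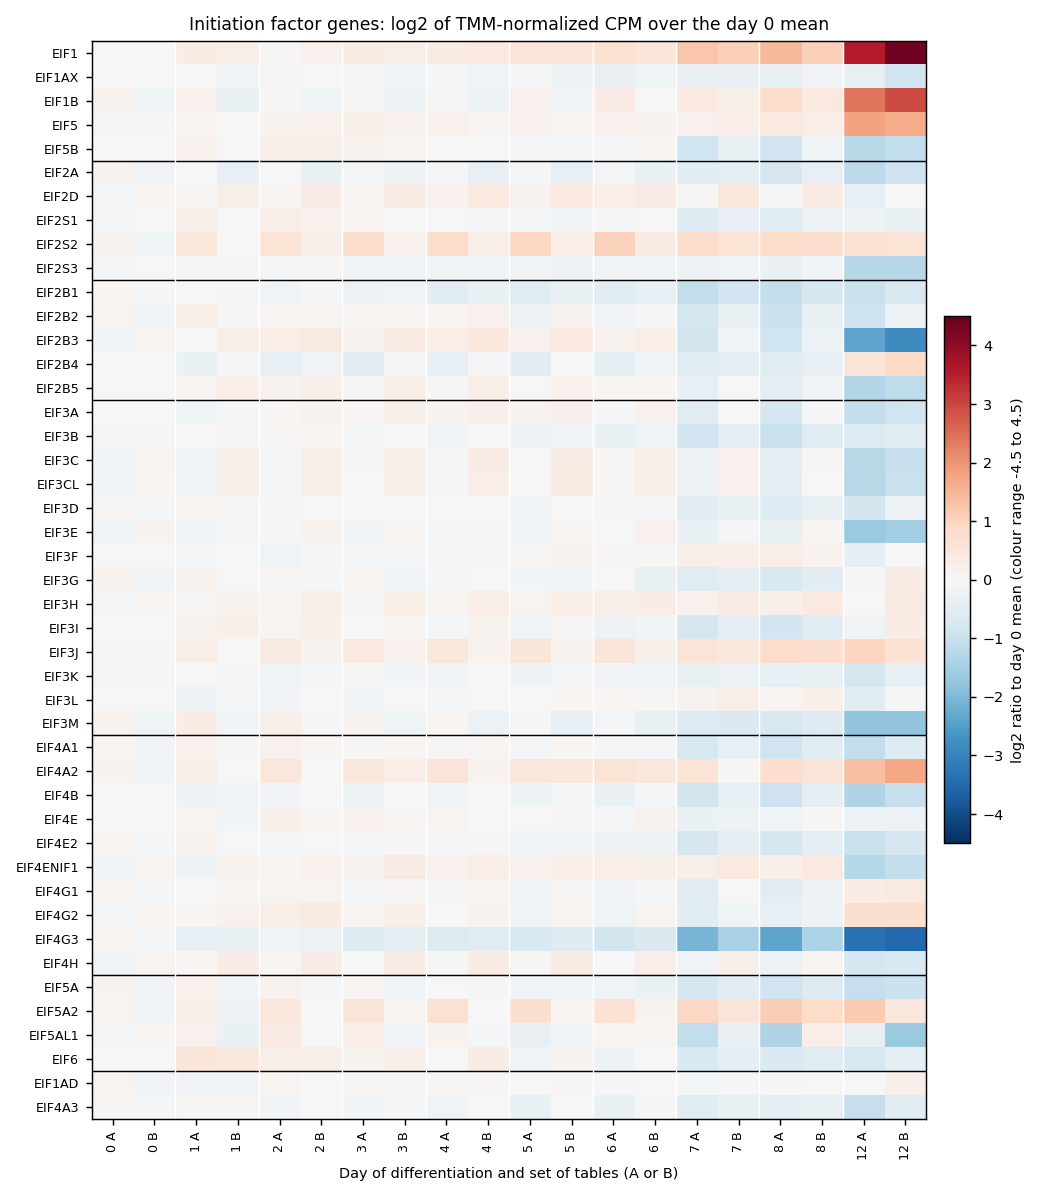
Log2 ratio of TMM-normalized CPM to the day 0 mean for 45 initiation factor genes (rows, grouped by role between black lines: scanning and start codon, eIF2, eIF2B, eIF3, eIF4, eIF5A and eIF6, others) in each of the 20 libraries (columns, day and set). Colours stay pale to day 6, and on day 12 EIF1 is deep red, EIF1B and EIF5 are paler red, and EIF4G3 and EIF2B3 are blue.

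At the basophilic stage (days 4 to 6) few initiation factor genes were called against day 0. No member was called higher, where 7.38% of all genes were, and 2 of 47 were called lower, where 9.22% of all genes were. At an unadjusted p under 0.05, 4 members were higher and 2 lower, and the share of all genes at that threshold was not computed. DESeq2 called 2 members higher and 3 lower, where 10.2% and 11.8% of all genes were. The median log2 fold change of the members was 0.01, against -0.01 for all genes. EIF4G3 fell by 0.65 on the log2 scale (SE 0.19, adjusted p = 0.0355) and EIF2B1 by 0.42 (SE 0.12, adjusted p = 0.0306). Neither call held without either of the day 0 libraries. With the set of tables as a term in the model 8 members were called higher (12.6% of all genes were), among them EIF1, EIF4A2 and EIF5A2. Within the sets EIF1 differed by 0.56 (A) and 0.49 (B), EIF2S2 by 0.75 and 0.50 and EIF4A2 by 0.42 and 0.56 on the log2 scale, each without overlap with day 0. For EIF4A2 the gap was narrow, with 223.0 normalized CPM on day 4 in set B against 222.5 on day 0 in set A. Of the 45 members not called, 32 overlapped with day 0, and the share of all genes was not computed. Days 1 to 3 were not tested.

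On day 8, the polychromatic stage, members were called in both directions. Of 47 members 7 were called higher than on day 0, where 17.7% of all genes were, and 13 were called lower, where 19.4% of all genes were. The median of the members was -0.30 and that of all genes 0.00. The libraries of the 2 days did not overlap for any of the 20 called members, which a call with 2 libraries a day nearly requires. Of the 27 members not called, only 9 overlapped, so lack of overlap does not set the called members apart. The share of all genes without overlap was not computed. For all 13 called lower the difference was larger in set A than in set B. Without the set A libraries of days 7 and 8, 2 members were called higher (EIF1 and EIF3J) and 3 lower (EIF4G3, EIF2B1 and EIF3B), where 10.3% and 10.9% of all genes were. Scaled by library totals, 1 member was higher and 25 lower (9.16% and 27.9% of all genes), and limma on log2(TPM + 1) gave 1 higher and 33 lower (7.29% and 39.7%). EIF1 was the 1 higher member in both, and EIF1, EIF2B1 and EIF4G3 were the members whose call held in all 18 alternatives tried.

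From day 8 to day 12, the orthochromatic and reticulocyte stage, changes were wider. Here 9 of 47 members were called higher, where 23.8% of all genes were, and 16 were called lower, where 33.4% were. Medians were alike at -0.21 for members and -0.20 for all genes. Under library totals 3 members were higher (EIF1, EIF1B and EIF5) and 36 lower (11.8% and 48.4% of all genes), and under limma on log2(TPM + 1) 2 were higher (EIF1 and EIF1B) and 40 lower (8.38% and 53.6%). The median of all genes fell by 1.02 on the log2 scale under library totals. The balance was more even with DESeq2 (11 higher and 11 lower, beside 26.9% and 31.4% of all genes). The same held with upper-quartile scaling (12 and 11, beside 27.1% and 30.3%). The median of all genes was -0.03 with DESeq2 and -0.02 with upper-quartile scaling, so all genes shifted with the members. In all 17 alternatives EIF1 and EIF1B were called higher, and EIF2B3, EIF2S3, EIF3C, EIF3CL, EIF3E, EIF3M, EIF4ENIF1 and EIF4G3 lower.

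**Figure D2:**
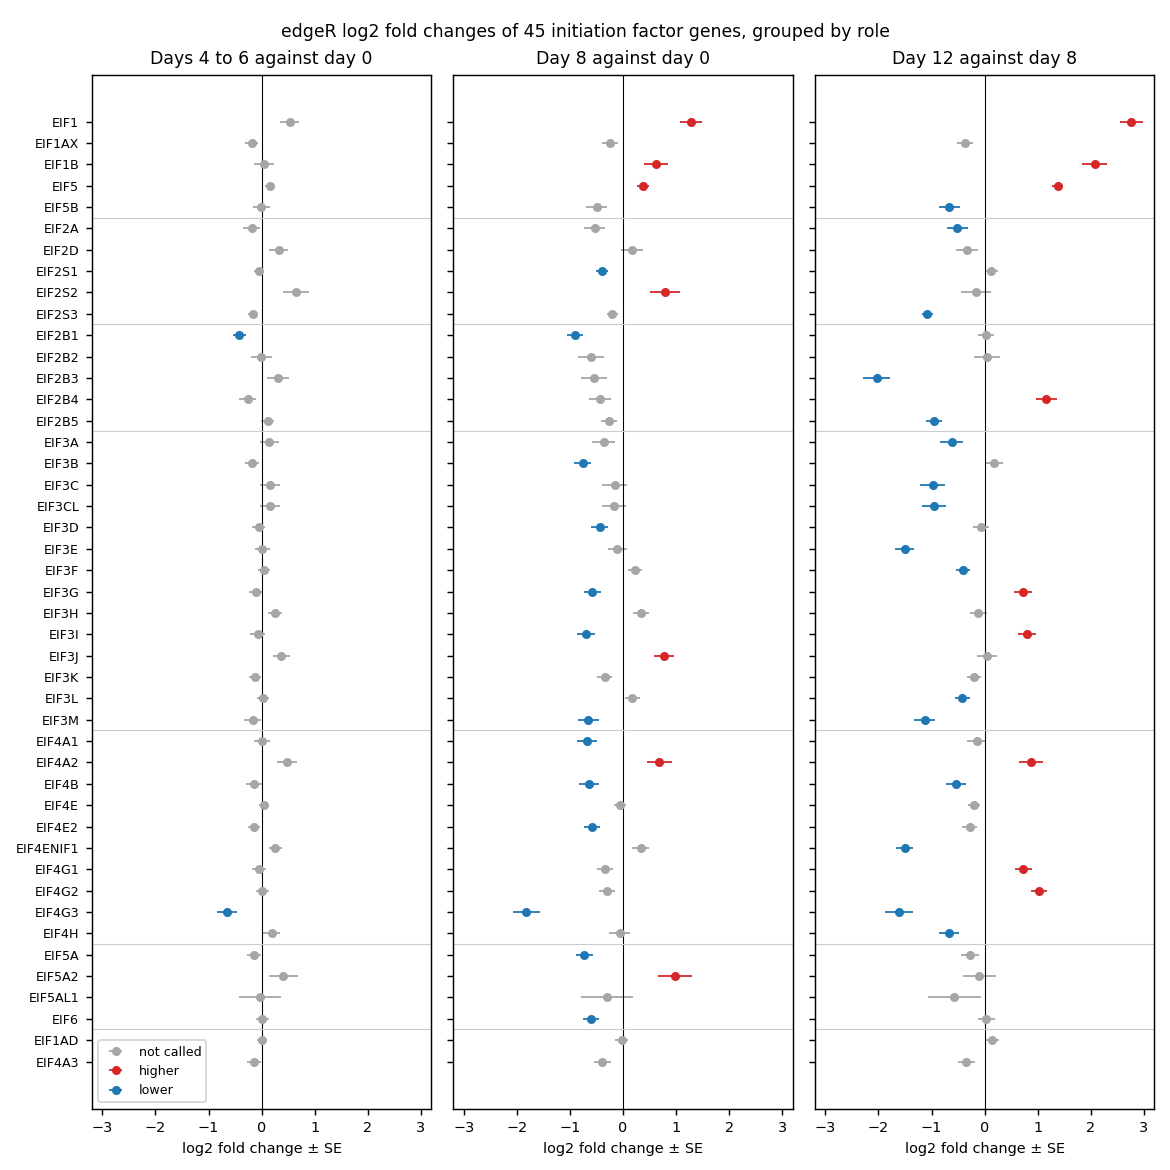
Log2 fold change ± SE of 45 initiation factor genes from the edgeR fit in 3 comparisons (panels), grouped by role between grey lines, with genes called higher in red, called lower in blue and not called in grey. On days 4 to 6 points lie near 0, while from day 8 to day 12 they run from -2.03 (EIF2B3) to 2.77 (EIF1).

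The factors of scanning and start codon selection held the members that rose most. EIF1, which keeps the scanning ribosome open and guards against wrong start codons, stood at 293 and 302 normalized CPM on day 0 (set A first), 480 and 435 on day 6, 712 and 623 on day 7, 819 and 618 on day 8, and 3548 and 6231 on day 12. Its level climbed in both sets and the day 12 libraries lie far above all others. EIF1 rose by 1.27 on the log2 scale from day 0 to day 8 (SE 0.21, adjusted p = 0.000472) and by 2.77 from day 8 to day 12 (SE 0.22, adjusted p = 1.88e-07). The rise was also seen without TMM, with 303 and 329 TPM on day 0, 523 and 477 on day 8, and 1049 and 1397 on day 12.

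EIF1B, a close copy of EIF1, stayed level for longer, with 57.1 and 44.7 normalized CPM on day 0, 53.0 and 43.5 on day 4, and 65.2 and 50.7 on day 6. It reached 87.0 and 69.3 on day 8 and 273 and 385 on day 12. The day 8 change was at the limit of the test (0.62, SE 0.23, adjusted p = 0.0498) and kept its call in 7 of 18 alternatives, whereas the rise to day 12 was 2.07 (SE 0.24, adjusted p = 5.71e-06). Within a library, where scaling cannot enter, EIF1 had 2.17 and 2.85 times the TPM of EIF1B on day 0 and 5.49 and 6.83 times on day 12, so the ratio was higher on day 12 in both sets.

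EIF5, which triggers GTP hydrolysis by eIF2, was at 226 and 241 normalized CPM on day 0, 317 and 288 on day 8, and 822 and 748 on day 12. The log2 change was 0.37 to day 8 (SE 0.11, adjusted p = 0.0139) and 1.38 to day 12 (SE 0.11, adjusted p = 1.51e-07). On the log2(TPM + 1) scale the last step was -0.069, so the rise of EIF5 is relative to the other mRNAs. By TPM EIF5 was also lower on day 8 than on day 0, with 82.8 and 90.9 after 95.7 and 107. EIF5B, the GTPase that joins the large subunit after EIF5 has acted, had 337 and 335 normalized CPM on day 0, 185 and 290 on day 8 and 141 and 158 on day 12, with a log2 change of -0.67 in the last step (SE 0.20, adjusted p = 0.0104). The TPM ratio of EIF5 to EIF5B went from 0.674 and 0.723 on day 0 to 1.72 and 0.998 on day 8 and 5.84 and 4.77 on day 12. EIF1AX, the partner of EIF1 on the small subunit, did not pass the test in any of these comparisons, at 146 and 142 normalized CPM on day 0, 112 and 132 on day 8 and 111 and 77.6 on day 12. It was called lower on day 8 under library totals (-0.61, edgeR adjusted p = 0.0459) and on the log2(TPM + 1) scale (-0.83, limma adjusted p = 0.00875). From day 8 to day 12 these changes were -1.20 (edgeR adjusted p = 0.000371) and -1.75 (limma adjusted p = 1.57e-05). The TPM ratio of EIF1 to EIF1AX was 3.78 and 4.02 on day 0 and 60.6 and 152 on day 12. The Y-linked copy is nearly identical to EIF1AX, and shared reads make the level of EIF1AX uncertain.

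**Figure D3:**
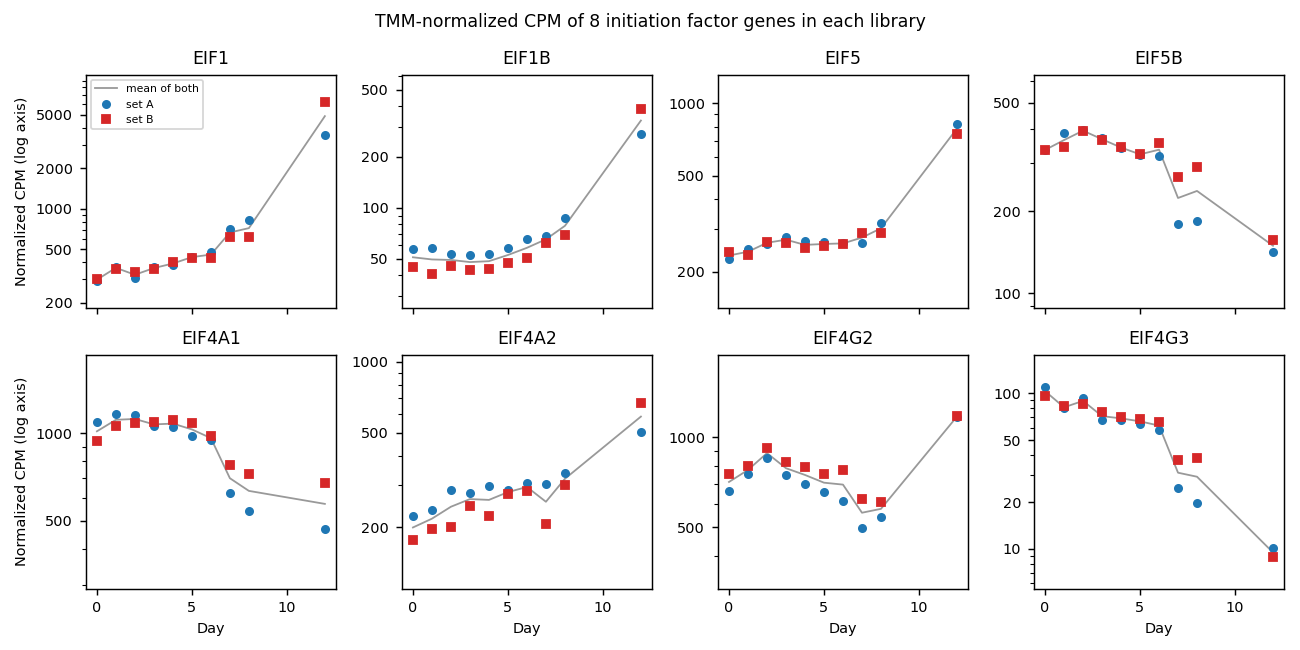
TMM-normalized CPM (log axis, each panel with its own range) against day for 8 initiation factor genes, with set A as circles, set B as squares and a line through the mean of both libraries. EIF1, EIF1B and EIF5 rise steeply after day 8, EIF4G3 is lower on day 8 than on day 0 and lower again on day 12, and on day 8 EIF4A1 lies below and EIF4A2 above its day 0 values.

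EIF1, EIF1B and EIF5 were all called higher from day 8 to day 12 on the TMM scale. The 120 bases before their start sites are shown, and after them those of EIF4A1 and EIF4A2, helicase copies that diverged. Sequences are from RefSeq (GRCh38.p14), 5′ to 3′ on the strand of the gene, and each ends at the base before the start site. Capitals mark any of 6 short motifs, read on both strands: the E-box CACGTG, the ETS motif CCGGAAGT, the GC box GGGCGG, the CCAAT box, the TATA box TATAAA and the GATA motif AGATAA.
EIF1, chr17:41688765-41688884, plus strand: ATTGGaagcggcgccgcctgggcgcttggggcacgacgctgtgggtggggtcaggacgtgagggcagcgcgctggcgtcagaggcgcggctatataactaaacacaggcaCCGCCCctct
EIF1B, chr3:40309587-40309706, plus strand: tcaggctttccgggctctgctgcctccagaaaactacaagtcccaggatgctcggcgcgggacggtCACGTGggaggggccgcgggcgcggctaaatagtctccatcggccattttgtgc
EIF5, chr14:103334117-103334236, plus strand: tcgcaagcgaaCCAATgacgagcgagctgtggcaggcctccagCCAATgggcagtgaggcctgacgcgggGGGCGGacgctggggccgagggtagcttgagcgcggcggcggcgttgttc
EIF4A1, chr17:7572705-7572824, plus strand: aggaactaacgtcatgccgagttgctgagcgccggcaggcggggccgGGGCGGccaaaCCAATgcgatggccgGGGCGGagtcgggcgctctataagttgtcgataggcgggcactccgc
EIF4A2, chr3:186783457-186783576, plus strand: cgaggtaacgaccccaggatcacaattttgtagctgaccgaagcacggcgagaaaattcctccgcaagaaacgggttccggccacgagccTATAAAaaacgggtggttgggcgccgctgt
In these windows EIF1 and EIF5 both hold a CCAAT and a GC box, and EIF1B holds an E-box and neither of the former. EIF4A1 holds CCAAT and a GC box, and EIF4A2 a TATAAA.

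Over the 250 bases before the start, 41 members had at least 1 entry among 27305 genes. The E-box was found for 10 of 41 members (24.4%, against 7.73% of all genes), the GC box for 30 (73.2%, against 46.2%), CCAAT for 18 (43.9%, against 37.0%) and the ETS motif for 6 (14.6%, against 4.13%). TATAAA was found for EIF4A2 alone (2.44%, against 13.0%) and AGATAA for 0 members (against 11.1%). These shares describe letters in a window. The 10 members with an E-box include EIF1B, called higher on day 12, and EIF2B3, called lower.

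eIF2, the carrier of the initiator tRNA, has 3 subunits whose mRNAs did not move together on the TMM scale. EIF2S1 (alpha, the subunit phosphorylated under stress) had 174 and 183 normalized CPM on day 0, 123 and 148 on day 8 and 152 and 144 on day 12. Its log2 change to day 8 was -0.40 (SE 0.12, adjusted p = 0.0202), with no call after on this scale. The day 8 call was lost with curated transcripts only (-0.32, edgeR adjusted p = 0.0543). Without the set A libraries of days 7 and 8 the change was -0.24. From day 8 to day 12 EIF2S1 was called lower under library totals (-0.72, edgeR adjusted p = 0.00497) and on the log2(TPM + 1) scale (-1.27, limma adjusted p = 3.82e-05). EIF2S2 (beta) had 242 and 189 normalized CPM on day 0, 381 and 363 on day 8 and 334 and 332 on day 12, and rose by 0.79 to day 8 (SE 0.28, adjusted p = 0.0439). That call was lost under library totals (0.41, edgeR adjusted p = 0.288), on the log2(TPM + 1) scale (0.20, limma adjusted p = 0.560) and without the set A libraries of days 7 and 8 (0.78, edgeR adjusted p = 0.145). The sets lay apart for EIF2S2 before that, with 437 in set A and 284 in set B on day 6. EIF2S3 (gamma, which binds the tRNA) was steady at 344 and 361 on day 0 and 288 and 324 on day 8, then stood at 144 and 145 on day 12, a log2 change of -1.08 (SE 0.10, adjusted p = 9.90e-07). Its 2 day 12 libraries agree closely and lie below all other days.

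EIF2A and EIF2D, factors that can deliver tRNA without eIF2, had 165 and 132 (EIF2A) and 47.2 and 54.0 (EIF2D) normalized CPM on day 0. EIF2D was not called in any comparison. The change of EIF2A to day 12 (-0.51, SE 0.20, adjusted p = 0.0439) ran from -2.10 to 1.83 over the 17 alternatives, the upper end with curated transcripts only. A predicted transcript, XM_024453787, held 70.5% and 75.9% of its TPM on day 0 and 67.2% and 4.46% on day 12, so on day 12 the sets differ in the share of this form.

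eIF2B reloads eIF2 with GTP and is built of 5 different subunits. None of its 5 mRNAs was called higher on day 8, when log2 changes ran from -0.90 to -0.27, and from day 8 to day 12, 1 was called higher and 2 lower, shares near the 23.8% and 33.4% of all genes. EIF2B1 (alpha) went from 76.7 and 68.4 normalized CPM on day 0 to 34.2 and 43.4 on day 8 (log2 change -0.90, SE 0.15, adjusted p = 0.000566) and remained at 35.8 and 43.7 on day 12. EIF2B3 (gamma, part of the catalytic pair) had 34.3 and 40.0 on day 0, 45.9 and 51.7 on day 4, 19.9 and 30.9 on day 8 and 7.16 and 5.25 on day 12, a last change of -2.03 (SE 0.26, adjusted p = 1.38e-05).

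EIF2B4 (delta) went the other way, with 21.5 and 23.2 normalized CPM on day 8 and 43.8 and 56.5 on day 12 (log2 change 1.17, SE 0.20, adjusted p = 0.000241), though not in TPM, where the change was -0.31. EIF2B5 (epsilon, the catalytic subunit) fell by 0.96 (SE 0.15, adjusted p = 0.000119). Within a library the TPM ratio of EIF2B4 to EIF2B3 was 0.893 and 0.776 on day 0, 1.21 and 0.804 on day 8, and 6.55 and 11.3 on day 12. The subunit mRNAs of this complex therefore did not keep their proportions.

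eIF3, the largest factor, holds the small subunit and the mRNA together, and its 14 genes gave 1 higher and 5 lower on day 8, and 2 higher and 7 lower from day 8 to day 12, beside 17.7% and 19.4%, then 23.8% and 33.4%, of all genes. EIF3E, the leading member on day 0, was at 1157 and 1461 normalized CPM then, 1040 and 1391 on day 8 and 413 and 441 on day 12, a last change of -1.51 (SE 0.18, adjusted p = 9.40e-06). EIF3M followed, from 285 and 225 on day 0 to 156 and 169 on day 8 (-0.65, SE 0.20, adjusted p = 0.0192) and 73.6 and 74.6 on day 12 (-1.13, SE 0.20, adjusted p = 0.000249). EIF3C and EIF3CL, whose reads may be shared, changed by -0.98 and -0.95 in the last step.

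EIF3B, the scaffold of the module near the mRNA channel, fell by 0.76 to day 8 (SE 0.16, adjusted p = 0.0029), from 463 and 430 to 223 and 303, and had 289 and 307 on day 12. EIF3G and EIF3I, partners of EIF3B, fell by 0.58 and 0.69 to day 8 and rose by 0.73 and 0.79 to day 12, when EIF3I had 201 and 282 and EIF3G 234 and 306 normalized CPM. In TPM both were lower on day 12 than on day 8, EIF3G with 146 and 146 after 205 and 286, and EIF3I with 72.8 and 77.3 after 97.7 and 144, so these rises too are relative to other mRNAs. EIF3J, a loosely bound subunit, was the single one of the 14 called higher on day 8, from 143 and 131 to 240 and 228 (0.78, SE 0.19, adjusted p = 0.00598), and had 269 and 216 on day 12. Under library totals its day 8 change was 0.39 (edgeR, adjusted p = 0.168) and on the log2(TPM + 1) scale 0.18 (limma, adjusted p = 0.499). The other eIF3 genes EIF3A, EIF3F and EIF3L were lower on day 12 by 0.40 to 0.62, EIF3D fell by 0.44 to day 8, and EIF3H and EIF3K were not called.

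Among the eIF4 genes the copies of the helicase differed in course. EIF4A1, the main RNA helicase of cap-dependent initiation, had 1092 and 941 normalized CPM on day 0, 947 and 979 on day 6, 541 and 727 on day 8 and 468 and 676 on day 12, with a log2 change of -0.68 to day 8 (SE 0.18, adjusted p = 0.0114). EIF4A2, its copy also known from miRNA repression, had 222 and 176 on day 0, 340 and 300 on day 8 and 505 and 667 on day 12, with changes of 0.68 (SE 0.23, adjusted p = 0.032) and 0.87 (SE 0.23, adjusted p = 0.00513). Without the set A libraries of days 7 and 8 the day 8 changes were -0.46 for EIF4A1 and 0.62 for EIF4A2. The day 8 call of EIF4A2 was lost under library totals (0.30, edgeR adjusted p = 0.273) and on the log2(TPM + 1) scale (0.09, limma adjusted p = 0.707). In TPM, EIF4A2 stood at 285 and 238 on day 0, 269 and 287 on day 8 and 185 and 185 on day 12, so its gain is relative to other mRNAs. The ratio of EIF4A1 to EIF4A2 within a library, which no scaling touches, was 5.27 and 5.75 on day 0, 1.71 and 2.60 on day 8 and 0.994 and 1.09 on day 12. Both sets moved from a clear excess of EIF4A1 to a ratio near 1.

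**Figure D4:**
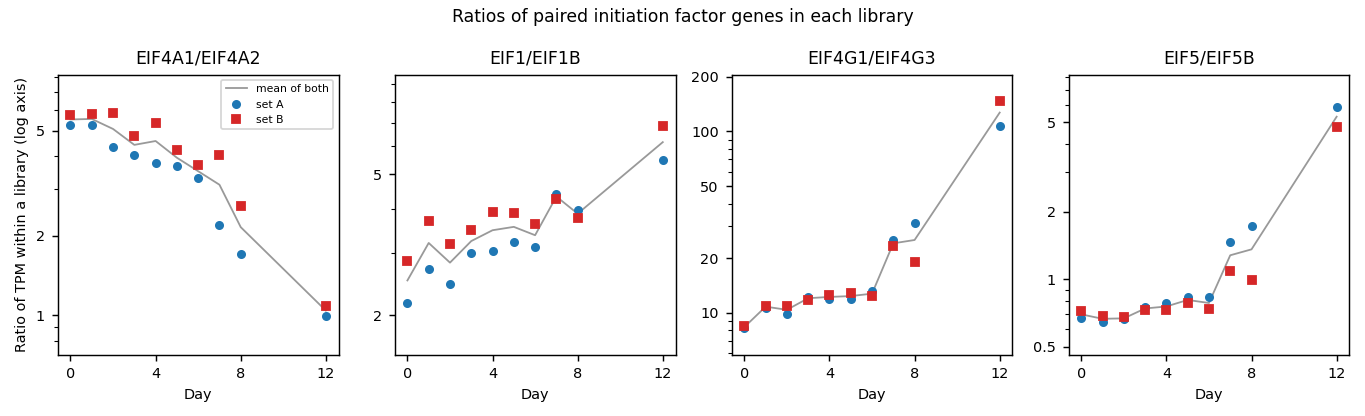
Ratio of TPM between paired initiation factor genes within each library (log axes) against day, with set A as circles, set B as squares and a line through the mean of both. EIF4A1 to EIF4A2 falls from about 5.51 to 1.04, while EIF1 to EIF1B, EIF4G1 to EIF4G3 and EIF5 to EIF5B rise.

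The scaffold proteins of the eIF4G family bridge the cap and the ribosome. EIF4G1, the main form, had 772 and 688 normalized CPM on day 0, 530 and 625 on day 8 and 927 and 990 on day 12, and EIF4G2 (DAP5), which lacks the eIF4E site, had 663 and 755, then 543 and 610, then 1169 and 1181. Neither was called on day 8, and both were called higher on day 12, by 0.73 (SE 0.16, adjusted p = 0.00124) and 1.03 (SE 0.15, adjusted p = 6.40e-05). Under TPM these 2 changes turned to -0.70 and -0.41.

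EIF4G3, the minor scaffold, fell in all 3 comparisons. It had 110 and 96.4 normalized CPM on day 0, 58.2 and 65.6 on day 6, 19.7 and 38.5 on day 8 and 10.1 and 8.91 on day 12. It fell by 1.83 to day 8 (SE 0.26, adjusted p = 0.000139) and by 1.61 to day 12 (SE 0.26, adjusted p = 0.000118). EIF4G1 had 8.26 and 8.45 times the TPM of EIF4G3 on day 0, 31.3 and 19.1 times on day 8, and 107 and 147 times on day 12. Of its transcripts, NM_001198801 carried 20.8 and 20.5 TPM on day 0 (49.9% and 53.5% of the gene) but 0.210 and 1.62 TPM on day 8 (4.51% and 14.9%), so the share of this form fell together with the gene.

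EIF4E, the cap-binding protein itself, stood at 112 and 110 normalized CPM on day 0, 99.6 and 114 on day 8 and 92.7 and 93.4 on day 12, and was not called in any comparison. From day 8 to day 12 EIF4E was called lower under library totals (-1.04, edgeR adjusted p = 0.000146) and on the log2(TPM + 1) scale (-1.51, limma adjusted p = 2.90e-06), and on the latter scale also on day 8 (-0.59, adjusted p = 0.00899). EIF4E2, a cap-binding copy linked to repression, fell by 0.59 to day 8 (SE 0.15, adjusted p = 0.00748), from 110 and 97.7 to 60.1 and 78.1. The TPM ratio of EIF4E to EIF4E2 was 0.140 and 0.154 on day 0, 0.213 and 0.179 on day 8 and 0.192 and 0.149 on day 12, so the day 0 and day 12 values overlap. EIF4ENIF1 (4E-T), which carries eIF4E to the nucleus and to P-bodies, was not called on day 8 (40.6 and 46.6) and fell by 1.50 to day 12 (14.4 and 16.4, SE 0.16, adjusted p = 2.29e-06). The helicase cofactors EIF4B and EIF4H were both lower on day 12, by 0.54 and 0.67, and EIF4B had also fallen by 0.64 to day 8.

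EIF5A, which carries hypusine and eases peptide bond formation, had 919 and 748 normalized CPM on day 0, 452 and 553 on day 8 and 405 and 422 on day 12, with a log2 change of -0.73 to day 8 (SE 0.17, adjusted p = 0.00394). EIF5A2, its low-level copy, rose by 0.97 (SE 0.32, adjusted p = 0.0302), from 20.1 and 16.7 to 39.4 and 32.9, and had 41.2 and 26.4 on day 12. That call was lost under library totals (0.58, edgeR adjusted p = 0.184) and on the log2(TPM + 1) scale (0.34, limma adjusted p = 0.371). Without the set A libraries of days 7 and 8 the change was 0.87. The TPM ratio of EIF5A to EIF5A2 was 193 and 190 on day 0 and 49.0 and 70.8 on day 8. EIF6, which keeps free large subunits apart from small ones, fell by 0.61 to day 8 (76.0 and 78.0 to 48.7 and 52.3, SE 0.15, adjusted p = 0.00746). EIF1AD and the exon junction helicase EIF4A3, which share only the name, were not called in any comparison.

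A short run of pyrimidines after a C at the start of an mRNA marks messages whose translation follows mTOR. A C followed by at least 4 letters that are C or T stood at a RefSeq start site for 10 of 41 members (24.4%), against 5.14% of all genes, and the run is shown in capitals for the 7 whose start site lay within 15 bases of the deposited gene end and whose gene is well expressed. Each window has 20 bases before and 10 from the start.
EIF2S3, chrX:24054936-24054965, plus strand: cagccggggtgatttccttcCTCTTTTggc
EIF3D, chr22:36529157-36529186, minus strand: ccgctgcgcgcgcatgtttcCTCTTTTCCT
EIF3F, chr11:7987317-7987346, plus strand: gtcatttccgcttccgcctcCTTCTTTCTC
EIF3K, chr19:38619168-38619197, plus strand: gtcgtttccgtttccaccacCTCTTCCTgt
EIF3M, chr11:32583811-32583840, plus strand: gcgtcgcgcggcccagttccCTTTTCCggt
EIF4A2, chr3:186783557-186783586, plus strand: gggtggttgggcgccgctgtCTTTTCagtc
EIF4B, chr12:53006436-53006465, plus strand: cgtgattgcctcatccgggtCTTTTgcgtt
On the TMM scale the mRNA levels of these genes did not share a course. From day 8 to day 12 EIF4A2 was called higher, EIF2S3, EIF3F, EIF3M and EIF4B were called lower, and EIF3D and EIF3K were not called. Of all genes 23.8% were called higher and 33.4% lower. In TPM all 7 were lower on day 12 than on day 8 in both sets, EIF4A2 with 185 and 185 after 269 and 287. This does not set them apart, since limma on log2(TPM + 1) called 40 of 47 members and 53.6% of all genes lower. The other 3 with such a start were EIF2A, EIF2D and the barely detected EIF2S3B.

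The regulators around the factors were taken as a list of 36 genes, all of which were tested. On days 4 to 6, 1 was higher and 1 lower, on day 8, 5 were higher and 5 lower, and from day 8 to day 12, 16 were higher and 10 lower. The shares of all genes were 7.38% and 9.22%, then 17.7% and 19.4%, then 23.8% and 33.4%. Levels and changes of these genes are given on the TMM scale only, so a rise is relative to other mRNAs. MKNK2, a kinase that phosphorylates eIF4E, rose most to day 8: from 149 and 148 normalized CPM on day 0 to 759 and 670 on day 8 and 1748 and 1596 on day 12. Its log2 change was 1.49 on days 4 to 6 (SE 0.10, adjusted p = 2.10e-06), 2.27 on day 8 (SE 0.12, adjusted p = 1.85e-07) and 1.23 from day 8 to day 12 (SE 0.12, adjusted p = 9.21e-07).

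Among the eIF4E inhibitors, EIF4EBP1 was not called, at 153 and 98.4 normalized CPM on day 0, 145 and 85.9 on day 8 and 82.4 and 88.0 on day 12. EIF4EBP2 rose by 0.41 to day 8 (SE 0.11, adjusted p = 0.0111) and by 1.02 to day 12 (SE 0.11, adjusted p = 3.48e-06), from 111 and 122 on day 0 to 333 and 295 on day 12. PDCD4, an inhibitor of eIF4A, fell by 1.57 to day 12 (SE 0.20, adjusted p = 1.52e-05), from 251 and 360 to 112 and 94.2. PABPC1, the poly(A)-binding partner of eIF4G, was not called in any comparison. It had 3905 and 4891 normalized CPM on day 0, 5594 and 7020 on day 8 and 7100 and 7256 on day 12. Its log2 change to day 8 was 0.52 (SE 0.22, edgeR adjusted p = 0.0808), and day 12 was not tested against day 0.

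DHPS and DOHH, the enzymes that make hypusine on eIF5A, rose by 1.81 (SE 0.17, adjusted p = 1.03e-06) and 1.36 (SE 0.17, adjusted p = 1.49e-05) from day 8 to day 12. EIF5A did not pass the test in that step, with a change of -0.28 on the same TMM scale. It was called lower under library totals (-1.13, edgeR adjusted p = 0.00045) and on the log2(TPM + 1) scale (-1.72, limma adjusted p = 3.99e-06). Values of DHPS and DOHH on those other scales are not given here. DOHH had fallen by 0.63 to day 8 (SE 0.17, adjusted p = 0.0113). DHPS had 33.3 and 33.9 normalized CPM on day 8 and 93.6 and 142 on day 12, and DOHH 26.3 and 22.9, then 60.3 and 66.4. RHEB, the activator of mTORC1, rose by 1.14 to day 8 (SE 0.39, adjusted p = 0.0341). ABCE1, which splits ribosomes for reuse, fell by 0.86 (SE 0.23, adjusted p = 0.0113) and then by 1.60 (SE 0.24, adjusted p = 5.90e-05). MTIF2, the mitochondrial counterpart, fell by 0.75 (SE 0.17, adjusted p = 0.00367) and then by 1.45 (SE 0.17, adjusted p = 7.21e-06).

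**Figure D5:**
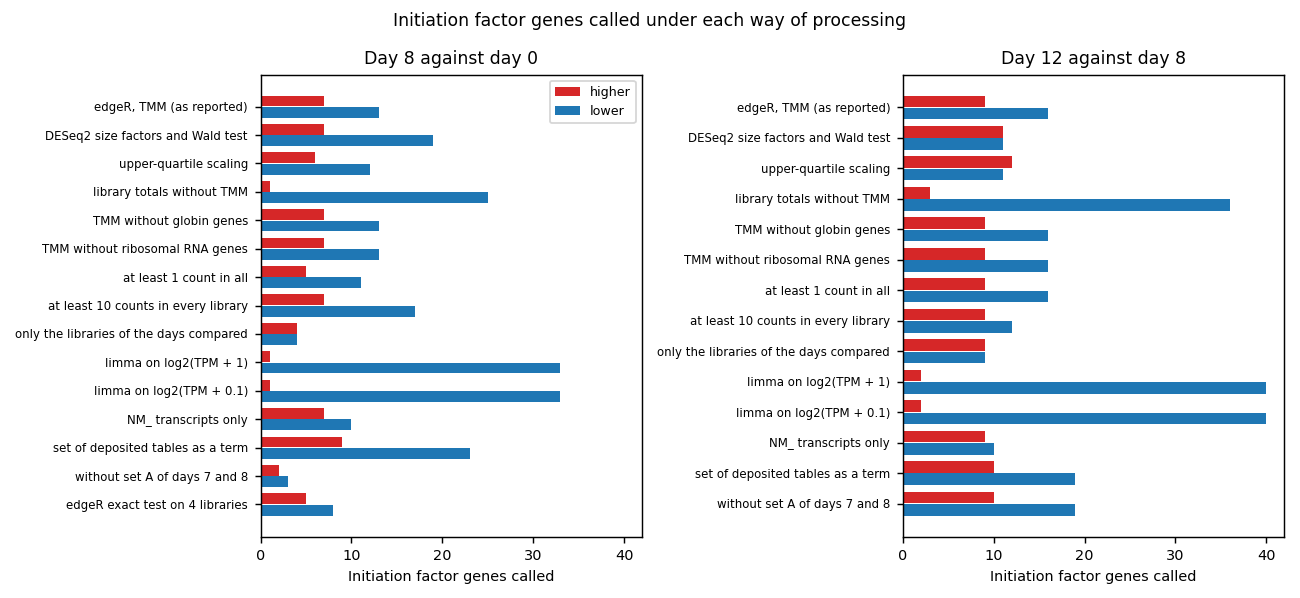
Number of initiation factor genes called higher (red bars) and lower (blue bars) on day 8 against day 0 (left) and day 12 against day 8 (right) under each way of processing (rows). Bars for lower calls reach 33 on day 8 and 40 on day 12 with limma on TPM, and on day 8 shrink to 3 without the set A libraries of days 7 and 8.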

How the data were processed

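The authors made stranded mRNA libraries, and per the labels' processing notes used Trimmomatic 0.38, HISAT2 2.1.0 and StringTie 2.1.3b with hg38. They deposited read counts, without normalization, and TPM scaled for transcript length and library, for 170322 RefSeq transcripts in 4 tables. How shared reads were divided is not given in the sources used here. Of the value columns 40 were read and 23 were not used here (FPKM and a further day 0 library, since 3 day 0 columns stood for 2 samples).

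Both units were summed by gene symbol. edgeR 4.0.16 (filterByExpr, TMM, glmQLFit, glmQLFTest) was fitted on all 20 libraries with 1 coefficient per day, and p-values were adjusted by Benjamini-Hochberg over 16784 genes at a threshold of 0.05. SE is the absolute log2 fold change over the square root of F. The fit was tested on simulated data. A count of 0 allows 3 counts, 0.0426 to 0.0575 CPM, which covers counting error only. Alternatives were DESeq2 1.42.0, limma 3.58.1 on log2(TPM + 1) and log2(TPM + 0.1), upper-quartile scaling, library totals, TMM without globin or ribosomal RNA genes, other filters, curated transcripts only, the set of tables as a term, only the days compared, edgeR's exact test, and libraries left out. Differences within each set (offset 0.1 CPM) were added after seeing the data.

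Members and lists were chosen with earlier results of these data known. Values in each library are given for 10 fixed members, for copies of a factor, and for the 4 called members with the largest change in each direction, and other members where they complete a complex. Of the pathway list EIF4EBP1, EIF4EBP2, PABPC1, PDCD4, DHPS, DOHH and the 2 with the largest change in each direction to day 8 are named. RefSeq promoters held entries for 41 of 48 members.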

Additional observations from a re-analysis of the deposited data

How the results depend on the processing

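No paired analysis was possible because the deposited columns name a day and no replicate number to block on. The set of tables, which is not a replicate number, was fitted as a term instead. Counts of members called were recomputed under each alternative. On days 4 to 6 against day 0, where 0 members were higher and 2 lower, DESeq2 gave 2 higher, the set of tables as a term 8, and library totals, only the days compared, both TPM fits and the fit without the set A libraries of days 7 and 8 gave 1, while library totals and curated transcripts gave 0 lower, and the filter of 1 count and limma on log2(TPM + 0.1) gave 1 lower. On day 8 against day 0 (7 higher, 13 lower), library totals gave 1 and 25, both TPM fits 1 and 33, only the days compared 4 and 4, and the fit without the set A libraries of days 7 and 8 gave 2 and 3. The set of tables as a term gave 23 lower and edgeR's exact test 8 lower. On day 12 against day 8 (9 higher, 16 lower), library totals gave 3 and 36, both TPM fits 2 and 40, and only the days compared 9 lower and curated transcripts 10 lower. With each library left out in turn, calls ran from 0 to 0 higher and 0 to 2 lower on days 4 to 6, from 2 to 6 higher and 3 to 18 lower on day 8, and from 8 to 10 higher and 10 to 19 lower on day 12. The lowest counts on day 8 (2 and 3) were without its set A library. Without its set B library they were 6 and 18, and without the day 0 library of set A they were 2 and 5, and without that of set B 3 and 10. On day 12, 10 lower calls were left without the day 8 library of set B or the day 12 library of set A. On days 4 to 6, 0 lower calls were left without either day 0 library or the set A library of day 4, 5 or 6, and 1 without the set B library of day 4 or 5.

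For the members and comparisons named by the rule, signs turned in 17 cases, all from day 8 to day 12 and under library totals or TPM. Other members were not counted here, and EIF3G and EIF3I, higher on day 12 by TMM, were lower in TPM. Under library totals the log2 change was -0.72 for EIF2S1, -0.12 for EIF4G1 and -0.81 for EIF6. With limma on log2(TPM + 1) and log2(TPM + 0.1) it was -1.27 and -1.31 for EIF2S1, -0.58 and -0.58 for EIF4A2, -0.70 and -0.71 for EIF4G1, -0.41 and -0.41 for EIF4G2, -1.41 and -1.43 for EIF6, -0.069 and -0.070 for EIF5, and -0.31 and -0.33 for EIF2B4. Both scalings count the growth of globin mRNA against all other genes by construction. Of the other values of single genes, 813 kept their direction and their side of the threshold, 84 lost the call and 48 gained it.

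With 2 libraries a day and 1 cell line, differences between days cannot be told apart from differences between the cultures sampled, and the changes of medium coincide with the stages.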

Other observations

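Transcript forms of 3 further members had different shares of the gene on different days, as estimated by the deposited transcript TPM. EIF4H, the cofactor of eIF4A, has 2 forms, and NM_022170 held 25.3% and 38.8% of its TPM on day 0 (sets A and B), 15.2% and 27.0% on day 8 and 7.60% and 7.46% on day 12, so its share was lower on day 12 than on day 0 in both sets. EIF2B3 carried 51.2% and 18.8% of its TPM in NM_001166588 on day 0 and 2.40% and 3.50% on day 8, with NM_020365 taking 94.5% and 93.1% by then. For EIF2B4 the share of NM_015636 was 60.3% and 27.9% on day 0, 9.56% and 24.5% on day 8 and 7.13% and 44.8% on day 12, lower on day 12 than on day 0 in set A and higher in set B. These shares rest on the division of reads between overlapping transcripts and were not tested.

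Outside the rule for named genes and chosen after its values were seen, EEF2K, the kinase that blocks elongation, had 136 and 194 normalized CPM on day 8 and 9.94 and 8.41 on day 12, a log2 change of -4.17 (SE 0.31, adjusted p = 1.11e-07 by edgeR), the widest of the 36 pathway genes in that comparison.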
